A study of Mus musculus with 10 samples.

Results

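The genes described here build and supply the primary cilium, the single antenna-like organelle on most epithelial and mesenchymal cells of the developing kidney. Members were taken from the array annotation by symbol: every Ift or Bbs gene with a number, 6 motor genes of kinesin-2 and dynein-2, and named GTPases, adaptors and base-of-cilium genes. This gave 63 probe sets of 38 genes, out of 34945 probe sets with 1 gene symbol and 18193 genes in all. Arl6, Arl13b and Rpgrip1l were also on the list, and no probe set carried 1 of these symbols alone.

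RNA came from whole urogenital systems of mouse embryos at embryonic day 15.5, in 10 pools of 1 to 2 urogenital systems each. The 5 pools called homozygous have 2 cneo copies of Wnt9b (Wnt9bcneo/cneo). The 5 pools called control are labelled Wnt9bcneo/+, while their titles call them wild type, and both readings remain possible. No treatment is named for either group, and neither the effect of the cneo allele on Wnt9b nor the strain is given. Since whole organs were taken, fewer cells of a type and less RNA per cell cannot be told apart in any value below. Nothing says whether the pools came from separate litters, so p-values measure the spread between these pools. Precision is limited by having 5 arrays a genotype.

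A cilium has no ribosomes of its own, so its proteins are carried in along a microtubule core by intraflagellar transport (IFT). Kinesin-2 motors pull trains of IFT-B complexes outward, dynein-2 with IFT-A returns them, and the BBSome loads membrane proteins for export. A transition zone at the base acts as the gate. Mutations in these genes are known to cause cystic kidneys, and reduced Wnt9b signalling is likewise known to give cystic tubules in mice. RFX transcription factors are known regulators of many cilium genes and bind a motif called the X-box.

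Promoter sequences of 33 of the 38 genes were found in RefSeq (GRCm38.p6; 250 bases before to 50 bases after the start). They are shown because RFX motifs are a feature that the choice of members did not use. A paired RFX motif, GTTNCC and then GGNNAC after a gap of 2 bases, was searched on both strands and occurred in 6 of 33 member promoters (18.2%) and in 1.49% of the 27025 genes with a promoter. The half-site GTTGCC, which overlaps the paired motif, occurred in 14 of 33 (42.4%) against 14.14%. The X-box consensus occurred in 3 of 33 (9.1%) against 2.15%. These 3 were picked from 13 patterns searched, after their counts were seen, so the shares are a description. Of the other 10 patterns, all variants of these, 6 matched no member promoter, and a loosened X-box was less frequent in member promoters (75.8%) than in all (88.17%). In the 250 bases before the start, member promoters also had a higher median GC content, 59.6% against 52.4% over all 32851 promoters, so that base composition differs between the sets. The 30-base windows below run 5′ to 3′ on the gene's strand with the match, on either strand, in capitals. The paired motif comes first, followed by X-box matches of a motor and a chaperonin gene.
Bbs7 (chr3:36613489-36613518, minus strand): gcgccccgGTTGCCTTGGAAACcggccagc
Mks1 (chr11:87853183-87853212, plus strand): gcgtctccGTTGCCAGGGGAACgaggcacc
Ift57 (chr16:49699199-49699228, plus strand): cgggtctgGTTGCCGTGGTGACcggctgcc
Ift22, first site (chr5:136908079-136908108, plus strand): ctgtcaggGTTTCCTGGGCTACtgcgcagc
Ift22, second site (chr5:136908109-136908138, plus strand): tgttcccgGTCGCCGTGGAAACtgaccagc
Bbs1 (chr19:4906605-4906634, minus strand): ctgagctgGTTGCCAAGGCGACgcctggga
Bbs4 (chr9:59353464-59353493, minus strand): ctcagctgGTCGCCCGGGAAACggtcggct
Dync2h1 (chr9:7177022-7177051, minus strand): gtgaagcgGTCGCCATAGCGACggagcttg
Bbs12 (chr3:37312431-37312460, plus strand): gacaggcgGTTGCTATAGCAGCgctcagcg

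The values of these 10 arrays carry array-wide differences that touch the members. For actin, the intensity at the 3′ end over that in the middle of the transcript, used to judge RNA integrity, reached 97.67 (homozygous pool 5) and 94.77 (control pool 1), and lay between 9.87 and 33.13 on the other 8 arrays. The 3′ to 5′ ratio of actin was 49.37 and 30.09 on those arrays and 40.59 to 75.68 on the rest, so that it was lowest in control pool 1 and inside that range in homozygous pool 5. For Gapdh the 3′ to 5′ ratio was 59.2 and 79.19 on those arrays, inside the 50.22 to 82.0 of the rest. Only the actin 3′ to middle ratio was thus high on this pair. Homozygous pools 3, 4 and 5 had high Xist and no control pool did, so Xist level is not balanced between the genotypes. Fits without the pools of high Xist set only homozygous pools 1 and 2 against the 5 control pools. They thus left out homozygous pool 5 but kept control pool 1, the other array of high actin ratio. Between 19.9% and 23.0% of probe sets on an array were at or under the intensity floor of 16. Kidney identity was checked on markers: Six2 of nephron progenitors had a mean log2 intensity of 11.09 and 12 in the homozygous and control pools, and Cdh16 of tubule epithelium 11.28 and 12.33. Of 8 nephron progenitor markers 7 were lower in homozygous pools and 1, Osr1, was higher (0.66). The mean of 8 kidney epithelium markers ran from 9.55 to 10.28 in homozygous pools and from 10.67 to 10.93 in control pools, and that of 15 neuron and chromaffin markers from 9.17 to 10.56 and from 5.81 to 8.82. Among 8 proximal tubule markers 6 were lower at an adjusted p under 0.05 in limma, and among 6 macrophage markers 2 were higher, beside 0.967% of all genes in either direction. Of the 4 macrophage markers that did not pass, C1qb (0.46) and Mrc1 (0.60) were higher and Cd68 was lower (-0.23). The last, C1qa, was at the floor on all 10 arrays. Whether these marker differences reflect cell numbers or RNA per cell cannot be told apart, and their part in the member values was not tested.

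No member passed the test for a difference between the genotypes. At an adjusted p under 0.05 in limma, 0 of 38 members passed in either direction, beside 0.967% of all 18193 genes (0.539% higher and 0.429% lower in homozygous pools). At an unadjusted p under 0.05, 3 members stood out, 2 lower and 1 higher, which is 7.89% of members beside 15.7% of all genes (9.83% higher and 5.89% lower). The homozygous pools all lay on 1 side of the control pools for 1 member, Traf3ip1, which is 2.63% of members beside 4.71% of all genes (2.61% higher and 2.1% lower). By sign, 23 members were lower and 15 higher in homozygous pools, with a median log2 difference of -0.10 against 0.00 over all genes; 53.9% of all genes were above 0. Without the arrays of high actin ratio the members' median was -0.051 (0.009 over all genes), and without the pools of high Xist it was -0.015 (0.024 over all genes). With equal array medians it was -0.153 (-0.05 over all genes). Without the arrays whose titles end in CHP, which leaves homozygous pool 5 alone, it was -0.244 (0 over all genes).

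The 95% interval of the difference, taken gene by gene, lay inside a 2-fold change in both directions for 35 of 38 members (92.1%), beside 68.3% of all genes, and inside 1.5-fold for 21 members, beside 7079 of the 18193 genes. The exceptions at 2-fold were Traf3ip1 (-1.43 to 0.17), Bbs2 (-1.43 to 0.91) and Dync2li1 (-1.21 to 0.58), each with 1 or more pools far below the rest. These shares depend on precision as well as on the size of the differences. The median SE was 0.15 for members and 0.21 over all genes, and genes of similar intensity were not compared.

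**Figure D1:**
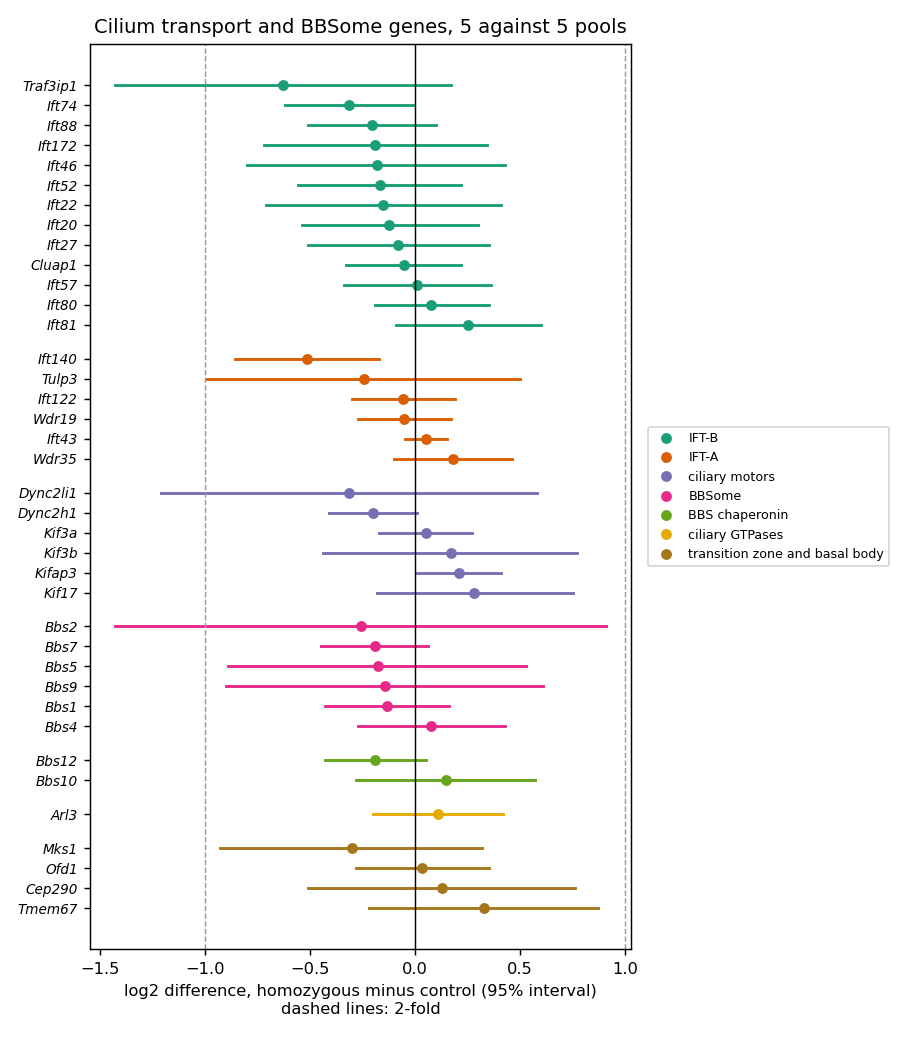
Log2 difference between homozygous and control pools for each of the 38 genes, grouped by role, with its 95% interval from the limma fit; dashed lines mark a 2-fold change. The intervals of 35 genes lie inside the dashed lines and those of 35 genes cover 0.

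The motors were measured by 6 genes. Kifap3, the non-motor subunit that links kinesin-2 to cargo, read 11.88, 11.86, 12.11, 11.94 and 11.88 (log2 intensity) in homozygous pools 1 to 5 and 12.01, 11.76, 11.66, 11.64 and 11.55 in control pools 1 to 5. Control pool 1 was inside the homozygous range and the other 4 control pools were below it. The difference was 0.21 ± 0.09 (SE), from 11.72 ± 0.18 (SD, n = 5) to 11.93 ± 0.10 (SD, n = 5), with an adjusted p of 0.301 in limma. Leaving out homozygous pool 5 and control pool 1 gave 0.29 (adjusted p = 0.118). With array weights Kifap3 passed, at 0.31 (adjusted p = 0.039). A second, dimmer probe set of Kifap3 differed by 0.15. The neuron and chromaffin marker means given above were also higher in homozygous pools, with 0 of 15 past the test in limma and 14 at an unadjusted p under 0.05. Also higher were 11 of 11 muscle, 8 of 8 adrenal cortex and 5 of 6 glia markers, beside 53.9% of all genes. In each of these lists 0 passed in limma. The part of these marker lists in the Kifap3 value was not tested.

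Dync2h1 (chr9:6928550-7178306), the heavy chain of the dynein-2 motor that returns trains to the base, leaned the other way. Its log2 intensity was 9.13, 9.12, 8.99, 9.29 and 8.99 in homozygous pools 1 to 5 and 9.08, 9.24, 9.41, 9.31 and 9.48 in control pools 1 to 5. The difference was -0.20 ± 0.09 (SE; adjusted p = 0.339 in limma), and the groups overlapped through homozygous pool 4 and control pool 1. Its light intermediate chain gene Dync2li1 differed by -0.32 ± 0.40 (SE), with a spread set by control pool 1 at 8.38 against 9.64 to 10.25 in the other control pools. Without control pool 1 it became -0.65 (unadjusted p = 0.0427 in limma), and without homozygous pool 5 it became -0.12. The kinesin-2 motor subunits did not pass either: Kif3a differed by 0.05 and Kif3b by 0.17, and Kif17, a homodimeric kinesin of sensory cilia, by 0.28.

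IFT-B, the complex that moves outward, had 13 measured genes, of which 10 were lower and 3 higher in homozygous pools, with a median of -0.15 and none past the threshold. Ift74, a core subunit that binds tubulin together with Ift81, had log2 intensities of 10.38, 10.51, 9.98, 10.36 and 9.87 in homozygous pools and 10.48, 10.35, 10.63, 10.54 and 10.70 in control pools. Homozygous pools 3 and 5 were lowest, and the other 3 reached into the control range. The difference was -0.32 ± 0.13 (SE; adjusted p = 0.297 in limma) and shrank to -0.09 without the 3 pools of high Xist, which include both of those low pools. Ift81, its partner, differed by 0.25 ± 0.15 in the opposite direction (adjusted p = 0.48 in limma). Homozygous pool 5 read 11.77 for Ift81, and the other homozygous pools 10.90 to 11.19. A dimmer probe set of Ift81 differed by -0.065, and another, at the floor on 2 arrays, by 0.77.

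Traf3ip1 (chr1:91494590-91529307), which encodes the IFT-B subunit also known as Ift54, was the member with separate groups. It read 8.66, 8.63, 8.43, 8.62 and 6.74 in homozygous pools 1 to 5 and 8.79, 8.82, 8.95, 8.82 and 8.85 in control pools 1 to 5. The control pools were tight, with an SD of 0.06, whereas homozygous pool 5 stood 1.84 below the mean of the other homozygous pools. The difference of -0.63 ± 0.36 (SE; adjusted p = 0.451 in limma) changed with that pool: without homozygous pool 5 it was -0.26 (adjusted p = 0.131), and without homozygous pool 5 and control pool 1 together -0.28 (adjusted p = 0.123).

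No other IFT-B gene passed the test. Ift88, the gene mutated in a classic mouse model of polycystic kidney disease, differed by -0.21 ± 0.14 (95% interval -0.51 to 0.10), and Ift172 by -0.19. Ift52, Ift46, Ift22, Ift20, Ift27 and Cluap1 lay between -0.18 and -0.05, and Ift57 and Ift80 at 0.01 and 0.08. Without control pool 1 Ift172 became -0.35 and Ift46 -0.38, and without homozygous pool 5 they became -0.04 and -0.06. Ift20 also works at the Golgi apparatus, where cargo for the cilium is sorted, and Ift27 is a small GTPase that helps the BBSome leave the cilium.

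IFT-A returns trains to the base and, with the adaptor Tulp3, brings receptors into the cilium. Ift140 (chr17:25016083-25099499), one of its core subunits, had the lowest unadjusted p of all members. Its log2 intensity was 9.95, 10.31, 9.94, 10 and 9.52 in homozygous pools 1 to 5 and 10.77, 10.19, 10.54, 10.35 and 10.44 in control pools 1 to 5. Homozygous pool 2 and control pool 2 crossed, and the other pools were apart. The difference was -0.51 ± 0.15 (SE), a fold of 1.43, with an unadjusted p of 0.00793 and an adjusted p of 0.139 in limma. It was -0.33 without homozygous pool 5 and control pool 1 (adjusted p = 0.177) and also -0.33 without the pools of high Xist (adjusted p = 0.616). Ift140 moved in the same direction as 7 of the 8 kidney epithelium markers given above, whereas Ret was higher (0.04). Of these 8 markers 0 passed in limma and 6 had an unadjusted p under 0.05, beside 0.967% and 15.7% of all genes. The part of these markers in the difference of Ift140 was not tested. Its promoter window up to the first annotated base of the gene (GRCm38.p6, chr17:25015836-25016082, plus strand, 61.9% GC) held 1 RFX half-site, read here on the opposite strand and set in capitals.
Ift140 promoter: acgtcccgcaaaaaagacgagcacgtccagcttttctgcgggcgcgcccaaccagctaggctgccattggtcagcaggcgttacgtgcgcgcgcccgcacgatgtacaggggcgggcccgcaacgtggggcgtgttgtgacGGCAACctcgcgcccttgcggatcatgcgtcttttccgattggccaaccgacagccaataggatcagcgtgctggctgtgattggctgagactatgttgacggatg

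Among the other IFT-A genes, Wdr35 read 9.46, 9.51, 9.53, 9.76 and 10.06 in homozygous pools and 9.69, 9.5, 9.41, 9.36 and 9.44 in control pools, overlapping ranges with a difference of 0.18 ± 0.12 (SE; adjusted p = 0.542 in limma). Ift43 had the narrowest interval of all members, -0.05 to 0.15 around a difference of 0.05, and Ift122 and Wdr19 differed by -0.06 and -0.05. Tulp3 differed by -0.25 ± 0.33 on its brightest probe set and by 0.48 on a dimmer one, while its remaining probe set was near the floor. None of these passed in limma.

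**Figure D2:**
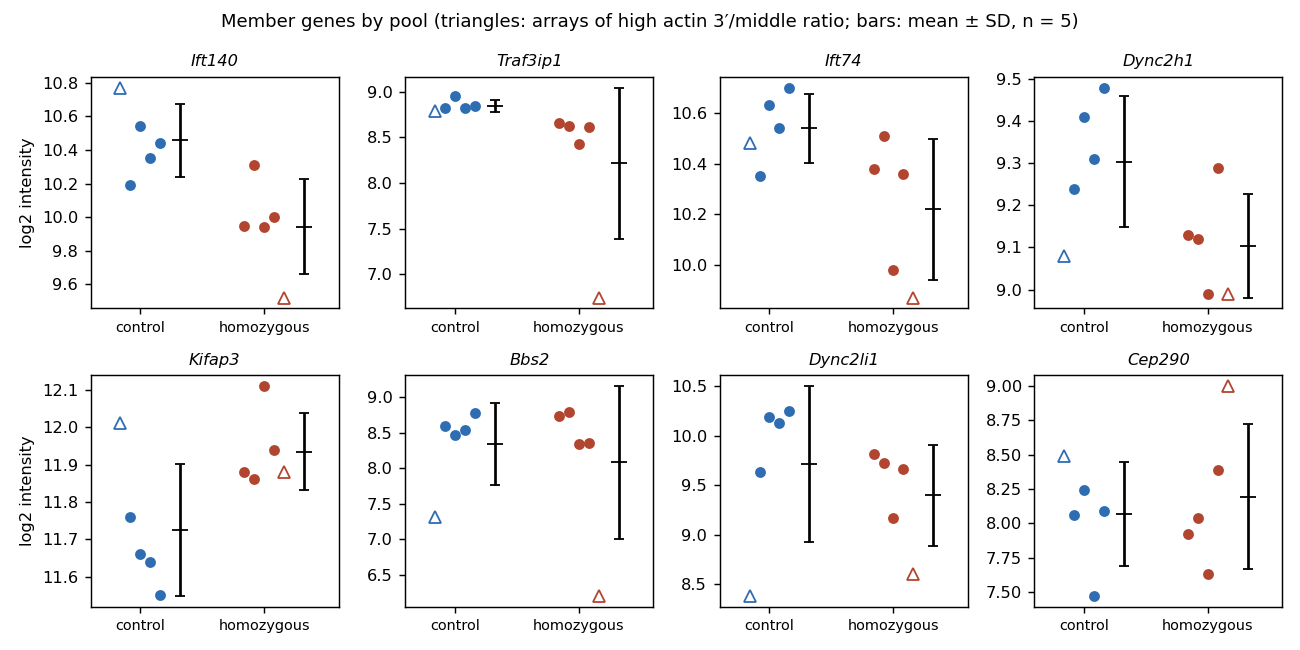
Log2 intensity of 8 genes in each pool, controls in blue and homozygous pools in red, with the mean ± SD of 5 pools beside the points; open triangles are control pool 1 and homozygous pool 5. Kifap3, Ift140, Ift74 and Dync2h1 show the partial overlap described in the text, and Bbs2 and Dync2li1 have their lowest value of each genotype in a triangle.

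The BBSome was measured through Bbs1, Bbs2, Bbs4, Bbs5, Bbs7 and Bbs9, all subunits of the 8-protein coat that carries membrane proteins out of the cilium. Of these 5 were lower and 1, Bbs4, was higher in homozygous pools, with a median of -0.16 and none past the threshold. Bbs7 read 8.76, 8.62, 8.43, 8.61 and 8.21 in homozygous pools and 8.76, 8.62, 8.61, 8.75 and 8.85 in control pools, with a difference of -0.19 ± 0.11 (SE; adjusted p = 0.469 in limma). The groups overlapped, with homozygous pools 3 and 5 below every control pool. Bbs1 read 8.47, 8.71, 8.46, 8.76 and 8.75 against 9.18, 8.70, 8.75, 8.69 and 8.53, a difference of -0.13 ± 0.13 (adjusted p = 0.67 in limma) with its highest value in control pool 1. Bbs5 and Bbs9 differed by -0.18 and -0.15. Without control pool 1 both became -0.44, and without homozygous pool 5 they became -0.05 and 0.01.

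Bbs2 had the widest spread inside a genotype of any member, with an SD of 0.86 after the genotype means were removed. It read 8.73, 8.79, 8.34, 8.35 and 6.20 in homozygous pools and 7.32, 8.59, 8.46, 8.54 and 8.77 in control pools. Both low values were on the arrays of high actin ratio, and its difference of -0.26 ± 0.52 (SE; adjusted p = 0.855 in limma) became 0.21 without homozygous pool 5.

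Bbs10 and Bbs12 encode chaperonin-like proteins that help assemble the BBSome. Bbs12 read 8.41, 8.5, 8.45, 8.45 and 8.20 in homozygous pools and 8.54, 8.85, 8.68, 8.36 and 8.53 in control pools, a difference of -0.19 ± 0.11 (SE; adjusted p = 0.46 in limma). Bbs10 read 7.32, 7.90, 7.66, 7.61 and 7.68 against 7.95, 7.46, 7.69, 7.08 and 7.25, a difference of 0.15 ± 0.19 (adjusted p = 0.743 in limma). Both genes overlapped between the groups and they leaned in opposite directions. Arl3, the GTPase that releases lipid-anchored cargo inside the cilium, read 12.52, 12.56, 12.58, 12.63 and 13.12 against 12.86, 12.62, 12.64, 12.36 and 12.39. Its difference was 0.11 ± 0.14 (SE; adjusted p = 0.741 in limma), with the highest value of each group on an array of high actin ratio.

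At the base of the cilium, Tmem67, Mks1 and Cep290 belong to the transition zone and Ofd1 to the distal centriole and its satellites. Mks1 read 8.4, 8.26, 7.78, 7.82 and 7.24 in homozygous pools and 7.59, 8.03, 8.64, 8.14 and 8.61 in control pools, a difference of -0.30 ± 0.28 (SE; adjusted p = 0.663 in limma) that became 0.13 without the pools of high Xist. Tmem67 was at or near the floor of 4.00 throughout, at 4.00, 4.80, 4.00, 4.06 and 5.21 against 4.00, 4.20, 4.00, 4.14 and 4.10, and its difference was 0.33 ± 0.24 (adjusted p = 0.574 in limma). Cep290 and Ofd1 differed by 0.13 and 0.03. Ofd1 lies on the X chromosome (chrX:166386573-166440704), and read 8.16, 8.45 and 8.75 in the 3 pools of high Xist. The first and second of these lay in the control range of 8.08 to 8.61, and homozygous pool 5 above it.

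Many members had their most extreme value of each genotype on the same pair of arrays. In 21 of 38 genes (55.3%) homozygous pool 5 and control pool 1 both fell outside the range of the other 4 pools of their genotype and on the same side, beside 35.9% of all genes. The arrays of this pair are those of high actin ratio and come from opposite genotypes. Of the 21 genes 11 were low on both arrays: Bbs2, Bbs5, Bbs9, Cluap1, Dync2li1, Ift172, Ift22, Ift46, Mks1, Traf3ip1 and Tulp3. The other 10 were high on both: Arl3, Bbs4, Cep290, Ift122, Ift57, Ift80, Ift81, Ofd1, Wdr19 and Wdr35. Relative to the mean of the other 4 pools, Bbs2 differed by -2.35 in homozygous pool 5 and by -1.27 in control pool 1, and Cep290 by 1.01 and 0.53. Ift140, Ift52 and Kif3a left the range in opposite directions on the 2 arrays. The pattern was thus common across the arrays, and the part of RNA integrity in it was not tested. Pools tied at the floor cannot fall outside the range, which can lower the share over all genes. Among the member gene values only Tmem67 reached the floor, and a share over genes of similar intensity was not computed.

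**Figure D3:**
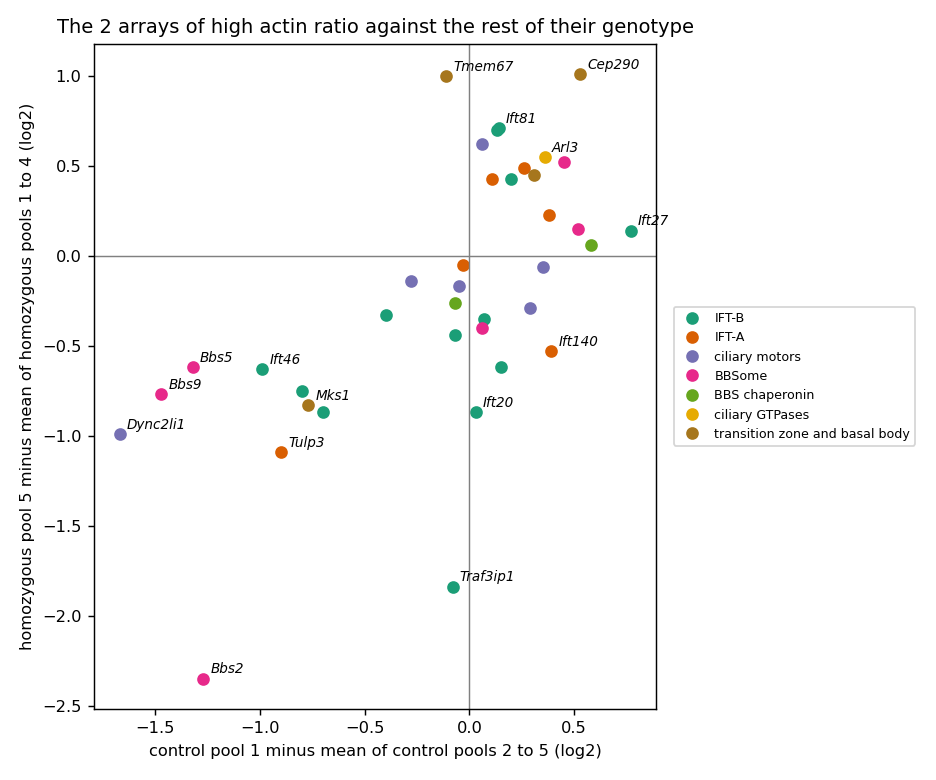
Each point is 1 of the 38 genes: the log2 distance of control pool 1 from the mean of control pools 2 to 5 (horizontal) and of homozygous pool 5 from the mean of homozygous pools 1 to 4 (vertical), coloured by role. Genes low on both arrays lie at lower left, led by Bbs2 and Dync2li1, and genes high on both at upper right, led by Cep290.

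Probe sets of 1 gene parted on the same arrays. Of the 15 members with several probe sets, 9 had differences of both signs between the genotypes, many of them near 0. Counting only probe sets that were at the floor on no array, 8 did: Bbs4, Ift27, Ift57, Ift80, Ift81, Kif3a, Kif3b and Tulp3. Among all 63 probe sets tested with the 45037 on the array, 0 passed in limma (adjusted p under 0.05, beside 0.231% of all probe sets) and 6 (9.52%) had an unadjusted p under 0.05, beside 12.3%. The pools were separate for 1 of 63, beside 3.29% of all probe sets. For Ift81, the brightest probe set differed from the mean of the other homozygous pools by 0.71 in homozygous pool 5, and another of its probe sets by -1.54. In control pool 1 the same probe sets differed from the other control pools by 0.14 and -1.67. One probe set of Kif3a was 10.52 in homozygous pool 5 against 9.22 in homozygous pool 1, and another was 7.02 against 8.26, so they went opposite ways. The brightest Bbs4 probe set differed by 0.52 and 0.45 on these arrays, and another by -1.40 and -1.77. Probe sets of a gene can target different ends or splice forms of its transcript, which was not examined here.

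**Figure D4:**
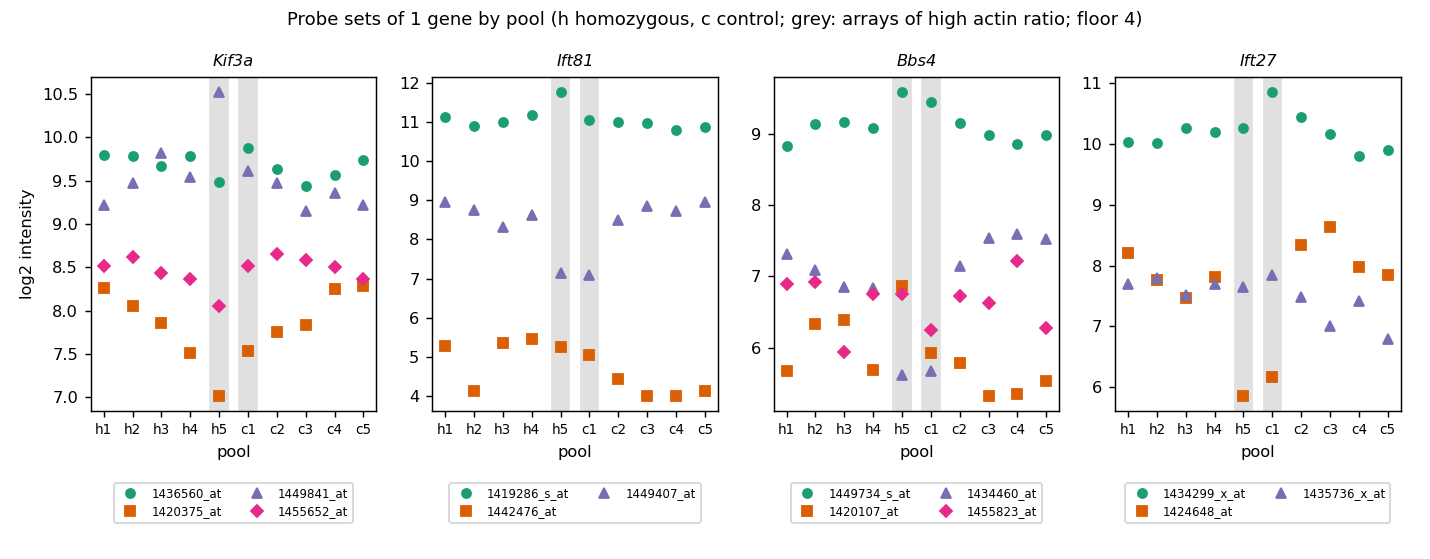
Log2 intensity of every probe set of Kif3a, Ift81, Bbs4 and Ift27 in the 10 pools, with the arrays of high actin ratio shaded. In homozygous pool 5 the brightest Ift81 probe set stands at 11.77, its highest homozygous value, and another at 7.13, its lowest.

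Further genes of the organelle, listed apart from the members, gave no call either. Of 28 measured genes among 31 listed for cilium transport, BBSome partners and cargo, 0 passed in limma and 3 had an unadjusted p under 0.05. For this and the lists below, the shares over all genes were 0.967% and 15.7%. Mkks, a chaperonin-like partner of Bbs10 and Bbs12, came closest, at -0.41 ± 0.09 (SE, adjusted p = 0.0599 in limma). Every homozygous pool was below every control pool for Mkks, as for 2.1% of all genes. Rab3ip, which activates Rab8 at the ciliary base, differed by -0.97 (adjusted p = 0.104). The third of these genes, Tub, related to Tulp3, went the other way with overlapping pools, at 1.78 (adjusted p = 0.178). Of 16 further transition zone genes 0 passed and 1, Tmem231, had an unadjusted p under 0.05, at -0.49 (adjusted p = 0.0991); Tctn2 differed by -0.35. Of 19 centriole and basal body genes 0 passed and 1, Cep152, had an unadjusted p under 0.05, at -0.22 (adjusted p = 0.178), with Ninl at -0.42.

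Genes of motile cilia, a different kind that beats, were measured as a check on other ciliated cells such as those lining ducts. Their 21 measured genes averaged 4.98 to 5.30 in homozygous pools and 5.00 to 5.38 in control pools, and 0 passed in limma, with 1 at an unadjusted p under 0.05. Foxj1, the regulator of motile cilia, was at the floor on 6 arrays, whereas Ccdc39 had means of 7.64 and 7.42 and Rsph9 of 7.29 and 7.18. Hydin and Tekt1 had the smallest p-values of this list, at 0.79 (adjusted p = 0.214) and -0.68 (adjusted p = 0.365). Of the 6 RFX genes 0 passed; Rfx1 differed by -0.26 (adjusted p = 0.177; unadjusted p = 0.0141) and Rfx7 by -0.16. Rfx4 was at the floor on 6 of 10 arrays.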

How the data were processed

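Each probe set has 1 deposited intensity an array, on a linear scale, from an Affymetrix mouse array (per the series design text). The authors scaled the arrays: the 2% trimmed mean was 500 on each. How probes were summarized is not given in the sources used here. That design text describes mesenchyme of another stage and allele, so the groups follow the sample labels. Control probe sets (64 of 45101) were left out. Values under 16 were set to 16 and taken to log2. Each gene was represented by its probe set of highest mean. Genotypes were compared in limma 3.58.1 (R 4.3.3; lmFit, eBayes with intensity trend, two-sided), with Benjamini-Hochberg adjustment over 18193 genes, and the fit was tested on simulated data. An intensity fold is 2 to the power of the log2 difference. Members and lists were chosen with earlier results of these data known. Full values are given for the 2 members of each role with the smallest p, and for each context list the 2 smallest.

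Alternatives covered the floor, normalization, probe set choice, dim genes, variance model, array weights, the replicate number as a block, each pool left out, actin ratio (limit 50), Xist (log2 limit 10, or as a covariate) and title ending.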

Additional observations from a re-analysis of the deposited data

Results flagged for a closer look

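In 10 of 76 sets of 5 values (38 genes in 2 genotypes) the highest or lowest pool stood far from the rest by Dixon's criterion. Chance alone reaches this criterion in about 1 of 20 sets. It was not applied to all genes, so whether members exceed the array-wide share was not tested. Of the 10 values 8 were on the arrays of high actin ratio. Homozygous pool 5 lay outside the range of the other homozygous pools in 81.6% of members and 59.8% of all genes. For control pool 1 and the other control pools these shares were 76.3% and 59.7%. Ties at the floor can lower the shares over all genes, and genes of similar intensity were not compared. In homozygous pool 5, Bbs2 (6.20, next pool 8.34) and Traf3ip1 (6.74, next pool 8.43) were far below the rest, and Arl3 (13.12, next 12.63), Ift57 (10.53, next 9.92) and Wdr19 (9.30, next 8.91) above it. In control pool 1, Bbs2 (7.32, next 8.46), Bbs5 (7.24, next 8.38) and Bbs9 (4.97, next 6.27) were far below. The remaining values were the low Ift57 of control pool 2 (9.70, next 9.98) and the low Kif17 of control pool 3 (5.15, next 5.64). The part of RNA integrity in these values was not tested.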

How the results depend on the processing

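The count of members past the threshold was 0 higher and 0 lower in all settings but array weights (1 higher, Kifap3) and the fit without the arrays whose titles end in CHP (2 higher, 3 lower); it stayed 0 to 0 as each pool was left out. That last fit sets the lone homozygous pool 5, whose actin ratio is high, against 5 control pools, and assumes that it varies like them; it called Tmem67 (1.12), Ift81 (0.83), Traf3ip1 (-2.11), Ift20 (-0.82) and Ift52 (-0.67). With the replicate block 0 members passed. Same-numbered pools correlated at -0.55 to -0.17 over all genes after the genotype means were removed. Deviations shared by homozygous pool 5 and control pool 1, of unlike number, enter these correlations, which therefore do not settle whether pools were paired. Over all genes 176 passed, against 1 with the block, 3 to 414 without single pools, 951 with array weights and 1192 without CHP titles. Of 38 differences 16 kept their sign in every setting run. The signs that turned were of differences past no threshold in the report. Without the pools of high Xist they became Arl3 -0.03, Bbs2 0.42, Bbs4 -0.09, Bbs5 0.06, Cep290 -0.09, Dync2li1 0.06, Ift172 0.08, Ift20 0.13, Ift22 0.10, Ift46 0.26, Ift57 -0.16, Ift80 -0.04, Mks1 0.13, Ofd1 -0.07 and Tulp3 0.25. With Xist as a covariate they became Arl3 -0.07, Bbs2 0.55, Bbs4 -0.13, Bbs5 0.13, Cep290 -0.15, Cluap1 0.02, Dync2li1 0.14, Ift172 0.13, Ift20 0.17, Ift22 0.16, Ift46 0.33, Ift57 -0.19, Ift80 -0.07, Mks1 0.19, Ofd1 -0.09, Tulp3 0.34 and Wdr35 -0.03. Without the arrays of high actin ratio Ift20 became 0.06, Ift27 0.04 and Ift57 -0.11. With array weights Ift27 was 0.09 and Ift57 -0.12, with the mean of all probe sets Ift57 -0.09 and Tulp3 0.22, and with equal array medians Ift57 -0.04 and Ofd1 -0.02. Without CHP titles Ift122 was 0.13, Ift27 0.03, Kif3a -0.17 and Wdr19 0.30. As single pools were left out, Bbs2 ran from -0.51 to 0.21, Bbs4 from -0.03 to 0.17, Bbs9 from -0.44 to 0.01, Cep290 from -0.07 to 0.27, Cluap1 from -0.13 to 0.01, Ift122 from -0.10 to 0.02, Ift20 from -0.23 to 0.05, Ift22 from -0.29 to 0.02, Ift27 from -0.19 to 0.07, Ift57 from -0.13 to 0.08, Ift80 from -0.01 to 0.13 and Ofd1 from -0.06 to 0.09. The cause of these turns was not tested. Of the arrays of high actin ratio, the fit without the pools of high Xist left out homozygous pool 5 but kept control pool 1. Values near the floor, as for Tmem67, limit what can be seen.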
